A study of Saccharomyces cerevisiae with 6 samples.

Results

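The small ribosomal subunit of budding yeast is encoded by 57 genes, the RPS genes and *ASC1*, and the read ends that fell on them were compared between a strain that lacks *RPA12* and WT. The members were taken by name from the R64 annotation of *S. cerevisiae*, as every gene called RPS with a number and an optional A or B, plus *ASC1*, and they are 57 of the 6430 nuclear genes in which read ends were counted. They form 33 families, of which 24 are pairs of near-identical copies (A and B) and 9 are single genes. No measured value entered that choice.

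NET-seq (native elongating transcript sequencing) maps the 3′ ends of RNAs that are held in a polymerase complex. In this study the complex was RNA polymerase I (Pol I), pulled down through an HA tag on its Rpa135 subunit, which both strains carry. The *rpa12Δ* strain is described as a derivative of the tagged WT strain with a full deletion of *RPA12*, the gene for the Pol I subunit A12.2, and both strains were harvested in early log phase from YEPD, a rich medium. Each strain was represented by 3 libraries, described by the study as biological replicates.

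Pol I makes the large precursor of the ribosomal RNAs, whereas the genes for ribosomal proteins are transcribed by Pol II. Their promoters are bound by Rap1, Fhl1 and Ifh1, and their output follows growth through the TOR pathway, so that in rich medium they rank among the most active Pol II genes. Most carry an intron close to the start codon, which is unusual in yeast, and many are kept as a pair of copies from an ancient duplication of the genome. From which polymerase or from which free RNA the ends on these genes came was not tested.

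A level in RPM is the number of read 5′ ends on the strand of the gene's RNA, per 1000000 reads that the library held outside the ribosomal DNA. The *rpa12Δ* libraries held 4859327, 4674055 and 4711417 such reads and the WT libraries 1662542, 1428431 and 1165143, so that a single read equals 0.206 to 0.214 RPM in *rpa12Δ* and 0.601 to 0.858 RPM in WT. Small nucleolar RNA genes took 62.2 to 66.2% of these reads in *rpa12Δ* and 57.7 to 60.4% in WT, and protein-coding genes took 14.03 to 17.2% in *rpa12Δ* and 17.9 to 20.4% in WT. *RPA12* itself had 0, 0 and 0.212 RPM in the *rpa12Δ* libraries against 4.81, 6.30 and 2.57 RPM in WT. The strains also differed in genes of mating type a, with 86.6, 72.7 and 75.1 RPM on *STE2*, the alpha-factor receptor gene, in *rpa12Δ* against 2.41, 3.5 and 4.29 RPM in WT. Whether the mating type has a part in the results below was not tested.

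All 57 members passed the filter of a mean of 10 RPM over the 6 libraries, and together they held 25252 to 28596 read ends per *rpa12Δ* library and 7333 to 11377 per WT library. Their summed level was 5197, 6118 and 5943 RPM in *rpa12Δ*, against 6843, 6669 and 6294 RPM in WT, so the strains did not overlap. *ASC1* alone supplied a large part of this. The other 56 members summed to 3801, 4176 and 4006 RPM in *rpa12Δ* and to 4821, 4428 and 4252 RPM in WT. As a share of the ends on protein-coding genes, those 56 members held 2.64% ± 0.362 in *rpa12Δ*, against 2.41% ± 0.0895 in WT (SD, n = 3 each), and on this scale the strains overlapped. Ends on the opposite strand of the members were rare, at 14 to 21 per *rpa12Δ* library and 4 to 8 per WT library.

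Levels per kb of gene spanned a wide range. *ASC1* was the highest at 1537 RPM per kb in *rpa12Δ* and 1837 in WT, and *RPS27A*, a gene of the platform protein Rps27, was the lowest at 23.5 RPM per kb in *rpa12Δ* and 20.1 in WT. Behind *ASC1*, the next levels in *rpa12Δ* were those of *RPS20* (370 RPM per kb), *RPS26A* (310), *RPS26B* (290), *RPS12* (256) and *RPS31* (251). In WT they were those of *RPS26A* (346), *RPS20* (323), *RPS15* (285) and *RPS31* (273). *RPS20*, *RPS12*, *RPS15* and *RPS31* encode proteins of the head of the subunit, and *RPS26A* and *RPS26B* a platform protein beside the mRNA exit. The single-library values of these genes overlapped between neighbours in the order, as the plot of levels per kb shows. These levels count every end of a gene, and single positions supplied much of some. Position 706 of *ASC1* held 89.9% of its ends outside *SNR24*, position 289 of *RPS26B* 43.6% and position 194 of *RPS20* 31.6%. Positions 286 and 289 of *RPS26A* held 21.5% and 16.7%, and position 80 of *RPS20* also held at least 10%. The order without these positions was not taken. Copies of a pair shared reads that fit both, and 16.9% (*RPS6B*) to 93.3% (*ASC1*) of a member's reads had a mapping quality of at least 10, the mark used here for a read with a single best place.

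**Figure D1:**
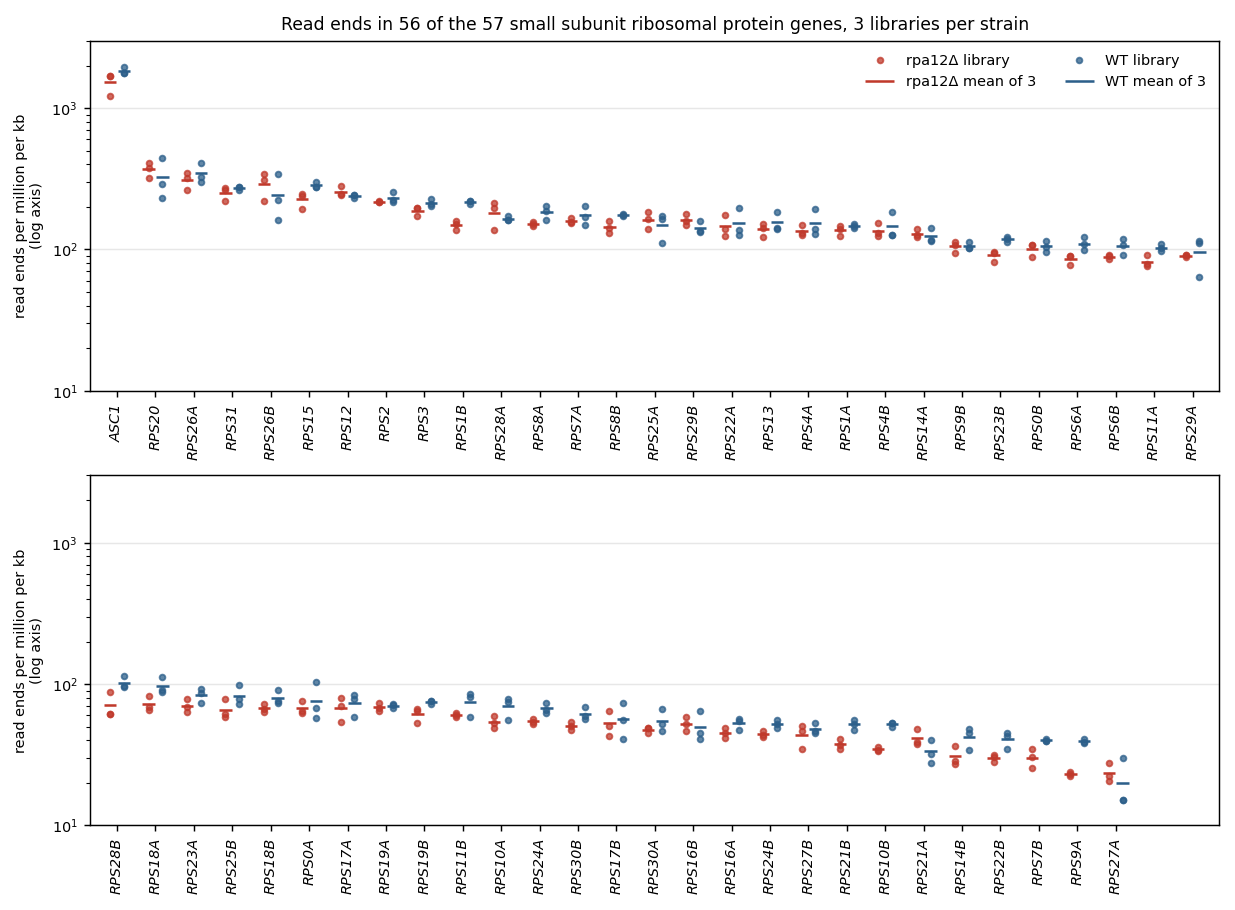
Read ends per 1000000 reads and kb (log axis) in 56 of the 57 members, ordered by mean level, with *rpa12Δ* (red) left of WT (blue). Points are single libraries and lines are means of 3. *ASC1* stands at 1537 RPM per kb in *rpa12Δ* and 1837 in WT, and *RPS27A* is last at 23.5 in *rpa12Δ* and 20.1 in WT.

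Between the strains, 3 of the 57 members were lower in *rpa12Δ* and 0 were higher (limma on log2(RPM + 1), Benjamini-Hochberg adjusted p under 0.05 over 2902 genes). That is 5.26% lower, while over all 2902 genes tested 25.6% were lower and 5.38% were higher, and over the protein-coding genes 27.7% were lower and 2.48% were higher. At an unadjusted p under 0.05, 12 of 57 members passed, where 1211 of all 2902 genes tested and 1033 of 2538 protein-coding genes did. The members' log2 differences had a median of -0.20 and lay between -0.74 and 0.31, with 53 of 57 within 0.5 of zero. The middle 50% of the members spanned 0.25 on the log2 scale, close to the 0.23 of the 76 genes of the large subunit. Over all genes tested the middle 50% spanned 0.66, around a median of -0.26. In 23 members (40.4%) every *rpa12Δ* library lay below every WT library, as it did for 33.5% of all genes tested, and in 0 members did every *rpa12Δ* library lie above, as it did for 10.2% of all genes tested.

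The sign of the typical member followed the denominator: 47 of 57 members were below zero relative to reads outside the rDNA, but 38 of 57 were above zero with median-of-ratios scaling and 40 of 57 relative to protein-coding ends. Those scalings moved the median of all genes by more than 0.1, to 0.02 and 0.03, and the median of the members to 0.09 and 0.09. Relative to the median of all genes tested in the same fit, the members' median stood at 0.06, 0.07 and 0.07 with the 3 denominators. Its size and sign rested on single libraries: with reads outside the rDNA as the denominator it was 0.19 without *rpa12Δ* replicate 1, 0.0057 without *rpa12Δ* replicate 2, -0.02 without *rpa12Δ* replicate 3, 0.0077 without WT replicate 1 and 0.02 without WT replicate 3. It was -0.0032 among genes with a mean of at least 50 RPM. When reads with the same start, end and strand were counted once, 51 of 57 members were above zero and 15 were called higher and 0 lower, where 16.1% of 5270 genes were higher and 8.43% lower. None of the 3 members named next was called with that counting.

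The largest fall among the called members was that of *RPS9A*, 1 of the copies for Rps9, a protein of the body that binds the rRNA early in assembly. *RPS9A* (YPL081W, chromosome XVI, 404950 to 406044) had 25.3, 26.3 and 24.6 RPM in *rpa12Δ* and 42.7, 42.0 and 44.6 RPM in WT. The values were tight within each strain and far from overlapping, with a log2 difference of -0.74 (SE 0.17, adjusted p = 0.00408, limma). It was the only member that was also lower with both other denominators, at -0.46 (SE 0.17) with median-of-ratios scaling and -0.45 (SE 0.18) relative to protein-coding ends. Its partner *RPS9B*, by contrast, had 93.8, 108 and 114 RPM in *rpa12Δ* and 103, 103 and 113 RPM in WT, which overlapped.

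*RPS10B*, a copy of the gene for the head protein Rps10, had 24.3, 26.3 and 25.05 RPM in *rpa12Δ* and 38.5, 38.5 and 36.0 RPM in WT. Its log2 difference was -0.56 (SE 0.17, adjusted p = 0.0232, limma), and the call was lost without any 1 of *rpa12Δ* replicate 2, *rpa12Δ* replicate 3, WT replicate 1 or WT replicate 2 (adjusted p from 0.0550 to 0.0804). *RPS1B*, for the platform protein Rps1, had 105, 116 and 123 RPM in *rpa12Δ* and 161, 169 and 169 RPM in WT, again without overlap. Its log2 difference was -0.54 (SE 0.14, adjusted p = 0.00886, limma). Neither call held with the other denominators. The partner of each had a smaller difference. *RPS10A* stood at -0.36 (SE 0.18, adjusted p = 0.149) and *RPS1A* at -0.10 (SE 0.15, adjusted p = 0.643).

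Members with the largest positive differences did not pass the test. *RPS21A* had 22.6, 28.2 and 22.1 RPM in *rpa12Δ* against 23.5, 18.9 and 16.3 RPM in WT, a log2 difference of 0.31 (SE 0.21, adjusted p = 0.280). *RPS26B*, at 123, 111 and 78.7 RPM in *rpa12Δ* against 122, 58.1 and 80.7 RPM in WT, stood at 0.30 (SE 0.24), and *RPS20*, at 150, 138 and 118 RPM in *rpa12Δ* against 164, 107 and 84.1 RPM in WT, stood at 0.24 (SE 0.21). The strains overlapped in all 3 genes. With both other denominators these 3 members were called higher, by 0.53 to 0.60 on the log2 scale, where 17.5% of 2888 genes were higher and 16.9% lower with median-of-ratios scaling, and 17.9% higher and 16.7% lower relative to protein-coding ends. Single positions held much of the ends in *RPS26B* (43.6% at position 289) and *RPS20* (31.6% at position 194). Position 80 of *RPS20* also held at least 10%. Whether these calls hold without such positions was not tested with those denominators.

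**Figure D2:**
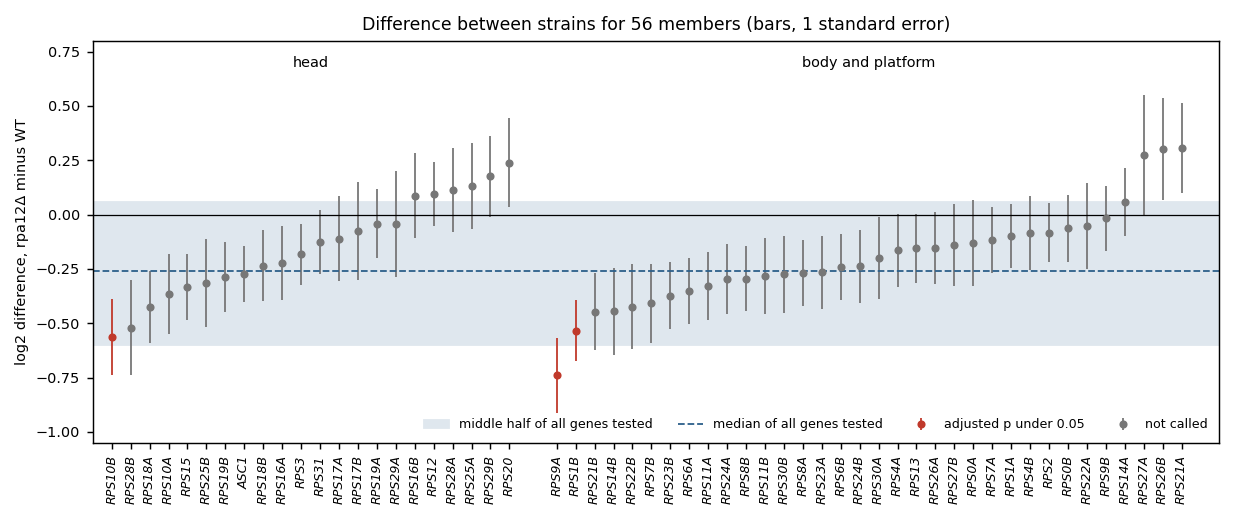
Log2 difference of read ends between *rpa12Δ* and WT for 56 of the 57 members, by its place in the subunit, with 1 standard error from limma. Red marks the 3 called members, the blue band the middle 50% of all 2902 genes tested and the dashed line their median of -0.26. Most members lie inside the band.

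By place in the subunit, 1 of the 23 head genes and 2 of the 34 body and platform genes were lower, with medians of -0.18 and -0.22 on the log2 scale. All 9 single-copy genes stayed uncalled in the main fit. Among them, *RPS15*, whose protein reaches toward the decoding centre, had 83.6, 106 and 102 RPM in *rpa12Δ* against 129, 119 and 118 RPM in WT. Every *rpa12Δ* library was below every WT library, with a log2 difference of -0.33 (SE 0.15, adjusted p = 0.111). *RPS3*, for a protein that lines the mRNA entry, had 124, 142 and 141 RPM in *rpa12Δ* against 151, 165 and 147 RPM in WT. With identical reads counted once, *RPS3* was instead called higher in *rpa12Δ* (log2 difference 0.33, SE 0.11, adjusted p = 0.0319, limma), where 16.1% of 5270 genes were higher.

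The other single-copy genes described here overlapped between strains, apart from *ASC1*, which is described below. *RPS2*, for another protein of the mRNA entry, had 167, 167 and 166 RPM in *rpa12Δ* against 194, 172 and 165 RPM in WT. *RPS31*, which encodes ubiquitin fused to the head protein Rps31, had 101, 120 and 125 RPM in *rpa12Δ* against 121, 127 and 127.9 RPM in WT. *RPS12* had 105, 107 and 121 RPM in *rpa12Δ* against 104, 106 and 100.4 RPM in WT, which put its mean slightly above WT. *RPS12* was called higher relative to protein-coding ends (log2 difference 0.39, SE 0.16, adjusted p = 0.0480, limma) and with identical reads counted once (0.57, SE 0.11, adjusted p = 0.000607), as were *RPS2* and *RPS31* with the second counting, but not with median-of-ratios scaling. *RPS13*, a body protein gene, had 142, 151 and 122 RPM in *rpa12Δ* against 184, 141 and 140 RPM in WT.

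The genes for the large subunit, the other set that makes the ribosome, are given beside the members. Of 76 RPL genes, all tested, 9 (11.8%) were lower in *rpa12Δ* and 0 higher, with a median log2 difference of -0.19. Their summed level was 5720, 5564 and 5679 RPM in *rpa12Δ* against 8086, 7531 and 6936 RPM in WT, which did not overlap. As a share of protein-coding ends the RPL genes held 3.73% ± 0.377 in *rpa12Δ*, against 4.02% ± 0.232 in WT (SD, n = 3 each), where the RPS genes without *ASC1* held 2.64% ± 0.362 in *rpa12Δ*, against 2.41% ± 0.0895 in WT. Whether the sets differed was not tested. Of 9 regulators of ribosomal protein genes, 8 were tested and 3 (37.5%) were lower in *rpa12Δ*, where 25.6% of all genes tested and 27.7% of protein-coding genes were. *TOR1*, a kinase that couples growth to nutrients, had 68.7, 39.8 and 42.0 RPM in *rpa12Δ* against 80.0, 89.6 and 73.8 RPM in WT (log2 difference -0.72, SE 0.20, adjusted p = 0.0134, limma). *SCH9*, the kinase that acts below it, stood at -0.61 (SE 0.19, adjusted p = 0.0221), and *IFH1*, the co-activator at the ribosomal protein promoters, at -0.67 (SE 0.21, adjusted p = 0.0257). These 3 calls are relative to reads outside the rDNA, and values of the 3 genes with the other denominators were not taken. *RAP1*, *FHL1*, *SFP1*, *HMO1* and *ABF1* were not called. Of 18 genes for factors that assemble the small subunit, 13 were tested and 0 were called at either an adjusted or an unadjusted p under 0.05, with a median log2 difference of 0.21. At the unadjusted threshold, 1211 of all 2902 genes tested passed.

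In some members a single position carried a large share of the ends. A single position held at least 10% of a member's ends in 14 members, at 16 positions in all, counted from 1 at the first base of the coding span. The most extreme was *ASC1* (YMR116C, chromosome XIII, 499456 to 500688), whose protein is the head-bound scaffold known as RACK1 in mammals and whose intron hosts the small nucleolar RNA gene *SNR24*. Position 706 of *ASC1*, the first base past *SNR24*, held 89.9% of its ends outside *SNR24*. Its level was 1256, 1754 and 1748 RPM in *rpa12Δ* against 1795, 2005 and 1815 RPM in WT, while the rest of *ASC1* summed to 172 ± 28.1 RPM in *rpa12Δ*, against 230 ± 5.18 RPM in WT (SD, n = 3 each). Relative to reads outside the rDNA, both the position and the rest of the gene were thus lower in *rpa12Δ* in every library. *ASC1* as a whole stood at -0.27 (SE 0.13, adjusted p = 0.126, limma). With each gene's highest position left out, an alternative chosen after seeing the data, it stood at -0.43 (SE 0.13, adjusted p = 0.0143). With the other denominators *ASC1* as a whole stood near zero. It was at 0.015 (SE 0.17, adjusted p = 0.962, limma) with median-of-ratios scaling and at 0.022 (SE 0.16, adjusted p = 0.939) relative to protein-coding ends. With identical reads counted once it was at -0.0095 (SE 0.12, adjusted p = 0.964). Whether the ends at position 706 belong to *SNR24* RNA was not tested.

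At the other 15 positions the strains overlapped, while libraries of 1 strain differed widely. In *RPS7A*, position 7 held 54.2, 51.2 and 40.9% of the gene's ends in *rpa12Δ* replicates 1, 2 and 3, against 51.4, 19.2 and 39.6% in WT replicates 1, 2 and 3. In *RPS13*, position 780 held 36.0, 36.2 and 21.8% in *rpa12Δ* against 39.9, 25.9 and 28.2% in WT, and in *RPS14A* position 678 held 27.6, 20.05 and 17.5% in *rpa12Δ* against 24.0, 9.17 and 13.5% in WT. Position 296 of *RPS4A* held 36.8, 33.5 and 19.9% in *rpa12Δ* against 38.0, 15.9 and 28.2% in WT. Of the 15 positions, *rpa12Δ* replicate 1 had the highest share among the *rpa12Δ* libraries at 14 and replicate 3 the lowest at 15. Likewise, WT replicate 1 had the highest share among the WT libraries at 14, and WT replicate 2 the lowest at 13.

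The same libraries stood out beyond the members. Of 810 other protein-coding genes with such a position (at least 10% of the ends and at least 50 ends), *rpa12Δ* replicate 1 was the highest of its strain in 580 and *rpa12Δ* replicate 3 the lowest in 685. WT replicate 1 was the highest of its strain in 649 and WT replicate 2 the lowest in 562. In levels, the 15 positions of the members summed to 533, 485 and 282 RPM in *rpa12Δ* and to 626, 226 and 308 RPM in WT.

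Outside these positions the members varied less. At all 15, the rest of the gene had a smaller SD relative to its mean than the position had, in *rpa12Δ* and in WT alike. The rest also held more ends than the position, and smaller counts spread more relative to their mean. No allowance was made for that. *RPS14A* without position 678 had 72.7 ± 0.310 RPM in *rpa12Δ* and 75.2 ± 3.60 RPM in WT, and *RPS13* without position 780 had 94.2 ± 2.97 RPM in *rpa12Δ* and 105 ± 5.18 RPM in WT (SD, n = 3 each). With the highest position of every gene left out, 10 members were lower in *rpa12Δ* and 0 higher, the 3 called before among them, where 33% of 2719 genes were lower and 5.3% were higher. *ASC1*, *RPS7A*, *RPS7B*, *RPS11A*, *RPS18A*, *RPS21B* and *RPS23B* were the added calls, with log2 differences from -0.48 to -0.36. What sets the level of these positions was not tested. At the positions of *RPS26A*, *RPS26B* and *RPS11B*, 47.2 to 99.7% of the reads had a mapping quality below 10, so the copies there cannot be told apart.

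**Figure D3:**
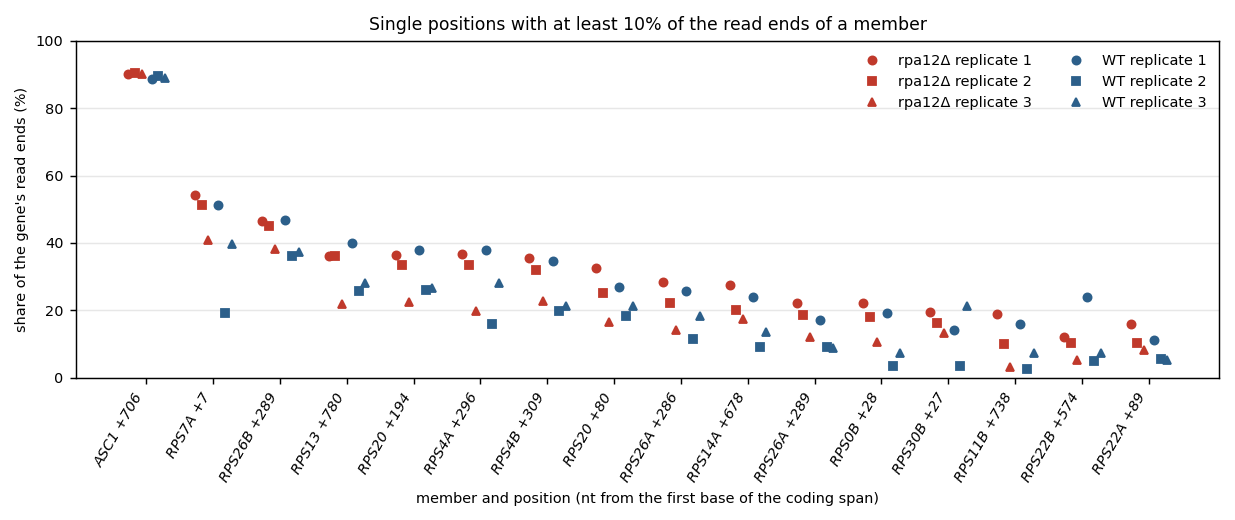
Share of a member's read ends at each single position that held at least 10% of them, for *rpa12Δ* replicates (red) and WT replicates (blue). Positions are nt from the first base of the coding span. Outside *ASC1*, replicate 1 of each strain sits high at 14 of 15 positions, and WT replicate 2 is the lowest WT library at 13.

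Along the genes, read ends were thin in a stretch near the start of many members. The reference used here lists no introns, so such stretches were sought in the 6 pooled libraries as runs of at least 60 nt with a density near 1 in 10 of the rest. They were found in 35 of 57 members and in 52 of 76 RPL genes. Of 129 protein-coding genes with a stretch, 62.8% had a coding span whose length is no multiple of 3, against 1.91% of the 2409 genes without, and among members the counts were 26 of 35 with a stretch and 0 of 22 without. Members' stretches were 165 to 565 nt long, with a median of 418 nt, and the density inside was 0.414% (*ASC1*) to 17.1% (*RPS27A*) of the density outside, with a median of 5.01%.

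*RPS0A*, for a protein on the solvent face of the subunit, shows the pattern well. Its stretch ran from position 94 to 564 and held 26 ends in the 3 *rpa12Δ* libraries and 19 in WT, against 1143 in *rpa12Δ* and 385 in WT on the rest of the gene. *RPS13* held 121 ends in *rpa12Δ* and 39 in WT between positions 24 and 579, against 1849 in *rpa12Δ* and 631 in WT on the rest. Over 33 members (*ASC1* and *RPS22B*, which host small nucleolar RNA genes, were left out), density inside was 4.97, 4.55 and 5.00% of that outside in *rpa12Δ* and 5.13, 5.75 and 6.95% in WT. Every *rpa12Δ* value lay below every WT value. The stretches were chosen for few ends in counts pooled without scaling for depth, most of them from *rpa12Δ*. On the rest of these genes *rpa12Δ* gave 9543, 10251 and 9741 ends, against 4252, 3296 and 2546 in WT. That choice can lower the density inside more in *rpa12Δ*, so this order cannot show a strain difference. The same sum was not taken over the other genes with a stretch. The ratio of inside to outside was called in 0 of 35 members, and at an unadjusted p under 0.05 in 2, *RPS17A* and *RPS4B*, both lower in *rpa12Δ*. Of the 129 genes tested, 3.1% were called and 14% had an unadjusted p under 0.05 (limma). The median log2 difference of this ratio was -0.13 over the 35 members and -0.07 over all 129 genes, with 1 RPM added to each part. Adding 0.1 RPM gave -0.24 over the members and -0.16 over all genes. Adding 10 RPM gave 0.09 over both, so the sign followed the amount added.

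*RPS14B* and *RPS9A* departed from the others. In these genes the dip was shallow and was found only with a looser rule of 1 in 3, added after seeing the data. That rule marked 1 further member, *RPS1A*, where a run of 100 nt (positions 525 to 624) had 65.6% ± 19.05 of the density on the rest in *rpa12Δ*, against 50.6% ± 12.5 in WT. *RPS14B* and *RPS9A* belong to known feedback loops in yeast, in which the protein represses the splicing of its own RNA. The early part of *RPS14B* (positions 14 to 443) had 5.35, 5.13 and 8.49 RPM in *rpa12Δ* against 4.81, 4.20 and 6.87 RPM in WT, which overlapped. On the rest of *RPS14B* there were 18.3, 17.3 and 21.6 RPM in *rpa12Δ* against 23.5, 35.7 and 30.04 RPM in WT, which did not. Density in the early part was 30.03% ± 5.20 of that on the rest in *rpa12Δ*, against 16.9% ± 5.37 in WT (SD, n = 3 each).

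*RPS9A* behaved alike on the rest of the gene. Its early part (positions 2 to 477) had 6.79, 5.99 and 4.03 RPM in *rpa12Δ* against 7.82, 7.70 and 6.01 RPM in WT, and the rest had 18.5, 20.3 and 20.6 RPM in *rpa12Δ* against 34.9, 34.3 and 38.6 RPM in WT. The early parts overlapped between strains, whereas the later parts stood well apart. Early density was 37.2% ± 11.2 of the later density in *rpa12Δ*, against 26.2% ± 5.16 in WT (SD, n = 3 each). The early parts rest on 6 to 13 ends per WT library, and their ratio was not tested across genes. Their partners *RPS14A* and *RPS9B* had deep stretches, with 3.06% and 4.22% of the density outside.

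**Figure D4:**
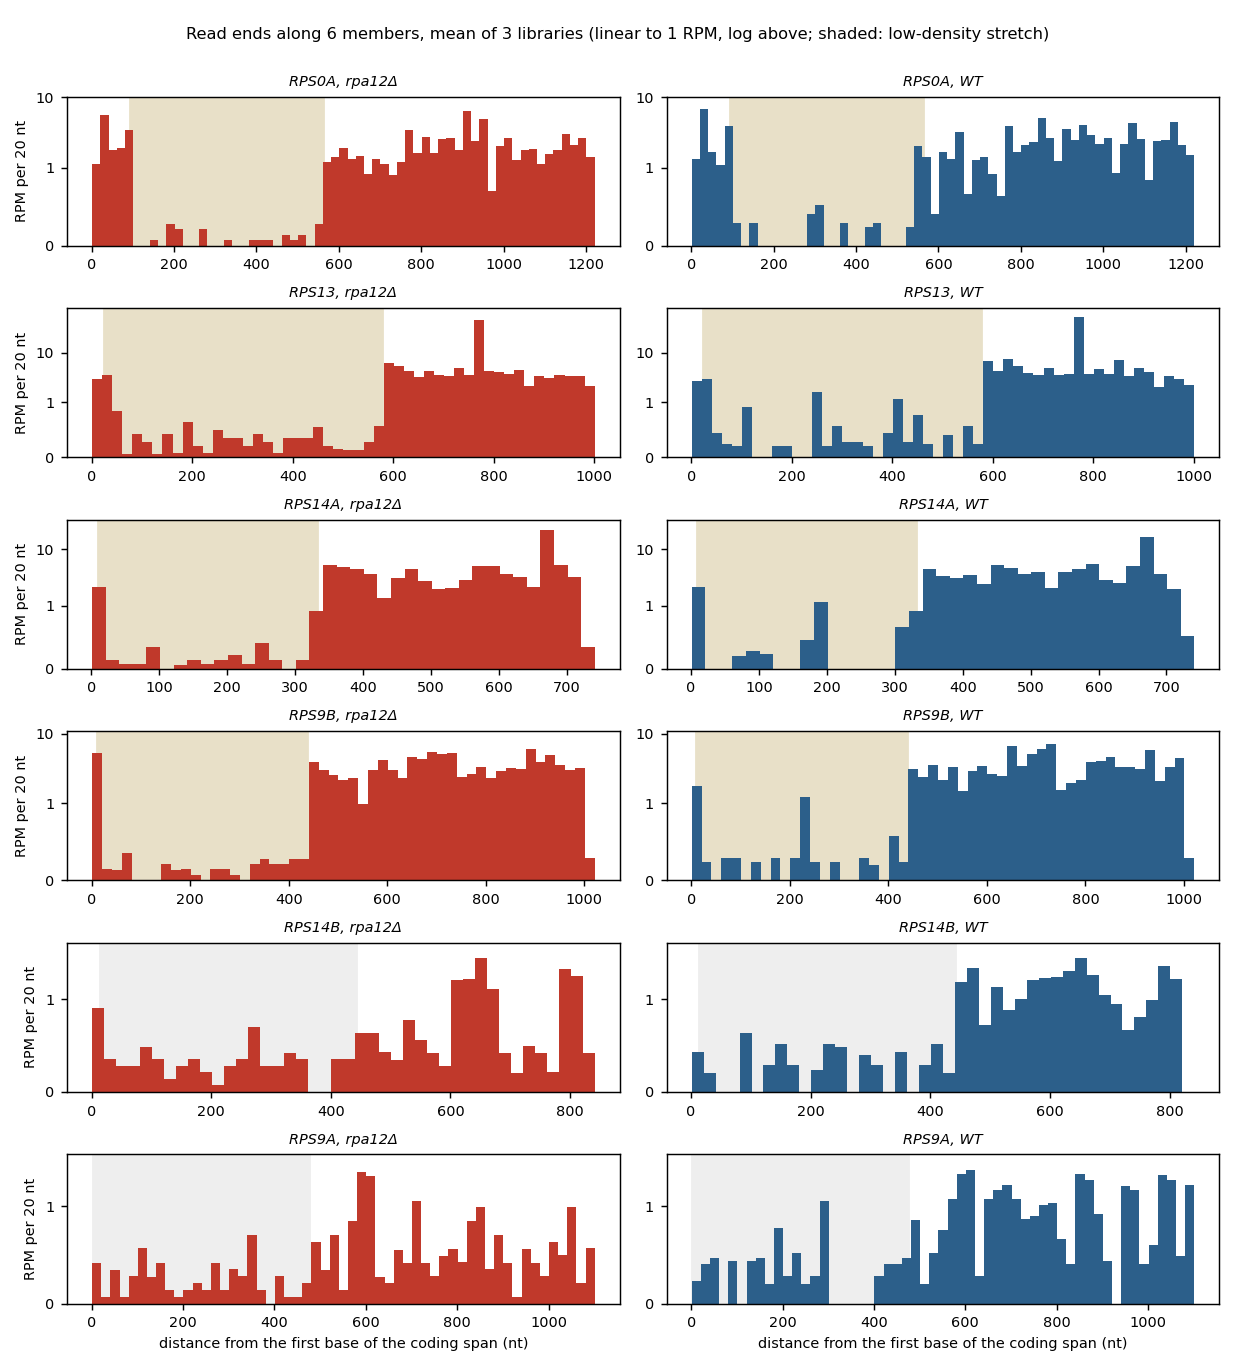
Read ends in RPM per 20 nt along 6 members from the first base of the coding span, as the mean of 3 libraries, with *rpa12Δ* at the left and WT at the right (axis linear to 1 RPM, log above). Sand marks stretches found with the main rule and grey those found with the looser rule. *RPS14B* and *RPS9A* keep 25.9% and 33.3% of the outside density in their stretch, the other 4 genes 3.06 to 5.09%.

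The ratio of ends on the later to those on the earlier part of each gene was called in 0 of 57 members and in 0.551% of all 2902 genes. At an unadjusted p under 0.05, 5 members passed, 4 of them lower, where 9.13% of all genes passed. The members' median log2 difference of this ratio was -0.20, against -0.09 for all genes tested. In the 200 nt past the coding spans, the members' ends summed to 937, 900 and 988 RPM in *rpa12Δ* against 1103, 1159 and 1051 RPM in WT, again without overlap. This holds relative to reads outside the rDNA. The sums were not set against protein-coding ends, where the share of the members without *ASC1* overlapped, nor against other genes. The 200 nt before the coding spans held far less, at 57.6, 73.4 and 76.2 RPM in *rpa12Δ* against 75.2, 64.4 and 67.8 RPM in WT, and overlapped.

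Copies of a pair were often unequal. To keep them apart, their ratio was taken from reads of mapping quality at least 10, which were 18.02% (*RPS6*) to 90.7% (*RPS27*) of the reads of a pair. The A copy was the higher in 16 of 24 pairs and the B copy in 8, and in 15 pairs all 6 libraries were on the same side. The widest gaps, on the log2 scale of A over B, were those of *RPS7* (2.54), *RPS14* (2.03) and *RPS9* (-1.95). The narrowest were those of *RPS30* (0.01), *RPS4* (0.07) and *RPS16* (0.11), where the libraries lay on both sides of zero.

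The strains did not overlap in 8 of the 24 pairs (33.3%), where they did not in 27.3% of 33 pairs of RPL genes. The 8 were *RPS1*, *RPS6*, *RPS9*, *RPS10*, *RPS19*, *RPS24*, *RPS26* and *RPS28*. In *RPS9* the log2 ratio of A over B was -2.11, -2.50 and -2.63 in *rpa12Δ* against -1.32, -1.49 and -1.67 in WT, a difference of -0.92, so the lesser copy was lesser still in *rpa12Δ*. In *RPS1* it was -0.13, -0.06 and -0.16 in *rpa12Δ* against -0.54, -0.57 and -0.60 in WT, a difference of 0.45 that left the 2 copies nearly equal. In *RPS28*, whose genes encode a small protein of the subunit, it was 1.22, 1.66 and 1.33 in *rpa12Δ* against 0.66, 0.64 and 0.39 in WT. *RPS26* went the other way, with -0.17, 0.29 and 0.42 in *rpa12Δ* against 0.76, 1.13 and 1.01 in WT. Single positions held 21.5% and 16.7% of the ends of *RPS26A* and 43.6% of those of *RPS26B*. Of the reads there, 47.2%, 99.7% and 57.1% had a mapping quality below 10, so they entered this ratio unevenly. The *RPS26* ratio without these positions was not taken. With 3 libraries against 3, the exact two-sided permutation test gives no p below 0.1, which is the value of each of these 8 pairs before any adjustment over the 24. With those reads alone, 9 members were lower in *rpa12Δ* (25.8% of 2853 genes were) and 0 higher (2.45%), *RPS28B*, *RPS14B*, *RPS18A*, *RPS21B*, *RPS6A* and *RPS23B* in addition to the 3 above.

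**Figure D5:**
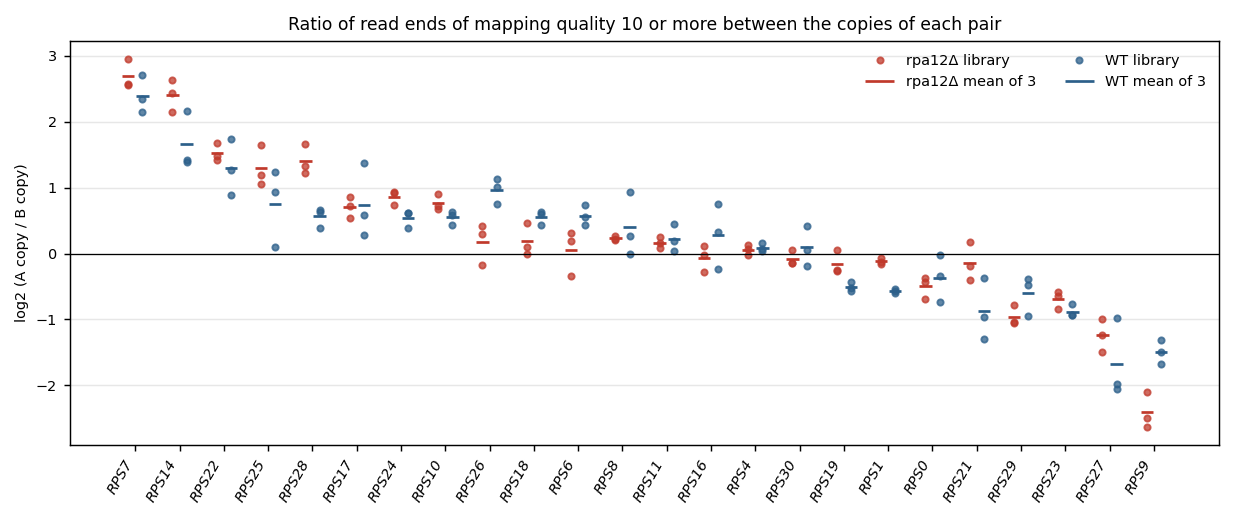
Log2 ratio of the A copy to the B copy in each of the 24 pairs, from reads of mapping quality 10 or more, with *rpa12Δ* (red) left of WT (blue). Points are single libraries and lines are means of 3. *RPS7* (2.54) and *RPS9* (-1.95) lie near the ends, and the *RPS9* libraries of the strains do not overlap.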

How the data were processed

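NET-seq reads of 6 libraries were used, 3 of *rpa12Δ* and 3 of WT. The authors trimmed and aligned the reads, and the deposited files hold 1 line per aligned read with its position, strand and a score, the mapping quality from 0 to 60. The submitters' notes name bcl2fastq 2.18.0.012, Trim Galore 0.4.1, BWA and SAMtools 1.3.1. Read 5′ ends opposite to the gene's strand in the file were counted (Python 3.11.15), without ends in nested SNR genes, and set against all of the library's reads beyond the rDNA. In R 4.3.3, limma 3.58.1 with a variance trend tested log2(RPM + 1) for genes with a mean of at least 10 RPM. The fit was tested on simulated data. PCR copies were not removed.

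Members and lists were chosen with earlier results of these data known. Named are the 6 highest members per kb, the called members, the single-copy genes, the 3 widest and 3 narrowest pairs and the regulators. Values of 1 member are not reported here. Other members were named after their values were seen. The low-density stretches replace annotated introns and were defined after seeing the data. Alternatives changed the denominator, filter, pseudocount, reads and model. The labels do not say whether replicate numbers pair the samples, and the main fit took them as unpaired.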

Additional observations from a re-analysis of the deposited data

How the results depend on the processing

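Leaving out each library in turn gave 2 to 3 called members, all lower, and a median member difference of -0.24 to -0.16. In those fits 15.1 to 37.0% of all genes tested were lower. With the replicate number as a block, 5 members were called, all lower, where 30.9% of 2902 genes were lower and 7.48% higher. The deviations of same-numbered libraries correlated by 0.166, 0.014 and -0.024, and those of differently numbered libraries by -0.231 to 0.238. With so few libraries a strain, these values cannot tell whether the numbers mark a pairing. Mapping quality at least 10 gave 9 called members, nested SNR genes left in gave 5, and the highest position left out gave 10, all lower. Of all genes tested, 25.8%, 25.7% and 33.0% were lower in these 3 settings. Median-of-ratios scaling gave 4 (3 higher) with a median of 0.086, and the protein-coding denominator gave 5 (4 higher) with a median of 0.093. Of 2888 genes, 17.5% and 17.9% were higher with these denominators, and 16.9% and 16.7% lower. Distinct intervals counted once gave 15 called members, all higher, with a median of 0.25 and 16.1% of 5270 genes higher and 8.43% lower. None of the 3 members called before was among these 15. That setting caps each position at the number of read lengths, and the members' median relative to all genes was 0.08 there. The other 14 settings, leaving out each library included, kept the count within 1.5 times. Filtering at 50 RPM left 36 members, of which 3 were called lower, *RPS1B*, *RPS18A* and *RPS23B*, where 30.2% of 918 genes were lower and 12.4% higher. The stretch ratio was called in 1 member, *RPS17A*, at a filter of 50 RPM, and in 0 under the other 14 settings. At that filter 3.9% of 77 genes were lower and 5.19% higher. The late to early ratio was called in 0 members under all 15 settings. *RPS9A*, which a filter of 50 RPM leaves out, kept its call except with distinct intervals (adjusted p = 0.287), and fell by 0.45 to 0.99 elsewhere. Ends at the edges of introns, and their window of positions, were not run because the annotation used here gives no introns. Depth limits the low members most: *RPS27A* had 13 ends in its thinnest library.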
